A study of Mus musculus with 11 samples.

Results

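The C1q, Fc receptor and leukocyte integrin genes comprised 10 genes that immune phagocytes use to bind, engulf and digest tagged material. They were chosen by symbol: C1qa, C1qb and C1qc, Fcer1g and Fcgr3, Laptm5 and Ctss, Itgam and Itgb2, and Ptprc. Each symbol matched 1 of the 24138 loci of the expression table, and none of the 10 loci was joined to another symbol. RNA was measured in the microdissected cortex of mouse embryos at E14.5. The 2 conditional knockout (cKO) libraries carried Chd8 c/c with Emx1-cre, a recombinase active in dorsal telencephalic progenitors and the cells they give rise to. The 3 control libraries had no Cre: the genotype given was Chd8 c/+ for the first of them and Chd8 c/c for the other two. The controls therefore carry floxed alleles as well, and no Cre-only control was among the RNA samples. The labels do not say whether a library came from 1 embryo or several, so p-values measure the spread between these libraries only. The 6 ATAC-seq samples of sorted progenitors were not analysed here.

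In the embryonic brain these genes are known mainly from microglia, phagocytes that enter the brain from the yolk sac and are not descended from the cells in which Emx1-cre is active. C1q opens the classical complement pathway: its A, B and C chains assemble into a secreted protein that tags debris, antibody complexes and synapses. Tagged material is bound through complement receptor 3, a pair of leukocyte integrin chains encoded by Itgam and Itgb2, and antibody-coated material through Fc receptors, which signal through the adaptor encoded by Fcer1g. Laptm5 and Ctss act in the lysosome, and Ptprc encodes CD45, the phosphatase on the surface of leukocytes.

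Both cKO libraries lay above every control for 9 of the 10 genes, and Itgam was the exception. Among the 18480 loci above 0 in any library, 12.9% lay above every control in both cKO libraries, and among the 12672 tested loci the share was 13.4%. The ratio of group means of the 9 genes ranged from 1.87 for Ctss to 4.41 for Fcer1g. Levels are in FPKM, fragments per transcript length, scaled to library size. Log2 changes are cKO minus control on log2(FPKM + 1), a scale that understates the change of low genes. By limma with Benjamini-Hochberg adjustment over all tested loci, none of the 7 genes with a mean of at least 1 FPKM was called, with adjusted p between 0.378 and 0.575. In that fit 6 loci were called, 0.0473% of those tested, all of them small RNA loci and none a member. All 7 genes had an unadjusted limma p under 0.05 with a higher level in cKO, against 3.08% of tested loci. In whole cortex, more cells of a type and more RNA per cell cannot be told apart.

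The starting regions of the genes are shown because the factor PU.1 is known to drive myeloid genes, and the letters it is known to bind can be looked up there. The RefSeq promoter table (GRCm38.p6) held 8 of the 10 genes; C1qa and Itgb2 were not among them. The letters GAGGAA, a core of PU.1 sites, were searched on both strands in the 250 bases before and 50 after the first listed start. They occurred in 7 of the 8 genes, against 28.3% of the 27025 genes in the table. The longer form GAGGAAG, which contains the core, occurred in 5 of the 8 genes, against 13.5% of all. A RUNX core, TGTGGT, was held by 2 of the 8, against 16.9%. The letters TTGCGCAA, known from CEBP sites, were in none of the 8, against 0.185%. TATAAA was held by 3 of the 8, against 14.2%. A match describes the sequence and does not show binding.

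Each line below gives 100 bases before the start, 5′ to 3′ in the direction of the gene, with the PU.1 letters and the RUNX core in capitals on either strand (TTCCTC is GAGGAA read on the opposite strand). The windows were C1qb at chr4:136886201-136886300 (minus strand), C1qc at chr4:136893035-136893134 (minus), Fcgr3 at chr1:171059404-171059503 (minus), Laptm5 at chr4:130913216-130913315 (plus), Fcer1g at chr1:171234350-171234449 (minus) and Itgam at chr7:128062540-128062639 (plus). All end at the base before the first listed start except that of C1qc, which runs from 220 to 121 bases before it.
C1qb: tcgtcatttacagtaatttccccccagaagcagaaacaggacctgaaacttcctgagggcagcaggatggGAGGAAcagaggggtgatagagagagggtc
C1qc: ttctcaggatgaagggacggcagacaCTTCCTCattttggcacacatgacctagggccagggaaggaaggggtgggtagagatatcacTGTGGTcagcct
Fcgr3: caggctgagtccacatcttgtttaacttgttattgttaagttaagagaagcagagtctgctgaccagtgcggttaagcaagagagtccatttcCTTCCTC
Laptm5: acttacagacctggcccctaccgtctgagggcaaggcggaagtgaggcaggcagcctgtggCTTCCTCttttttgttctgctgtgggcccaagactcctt
Fcer1g: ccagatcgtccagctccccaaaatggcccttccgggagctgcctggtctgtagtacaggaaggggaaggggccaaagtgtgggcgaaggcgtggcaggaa
Itgam: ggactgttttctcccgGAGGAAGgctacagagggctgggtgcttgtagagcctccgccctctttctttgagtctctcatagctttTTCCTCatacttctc

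The core stood 30 bases before the first listed start of C1qb, and the longer form 39 bases before that of Laptm5 and 7 bases before that of Fcgr3. For Laptm5, Fcgr3 and Ptprc the first listed start is an internal one. All bases searched for these genes lay inside the RefSeq gene span, not before its outermost start. The first listed start of C1qc also lies just inside its span, but the window shown for it lies before the outermost start. Fcer1g, the member with the largest change, was the single one of the 8 without the core in its promoter. Itgam, whose level was not higher in cKO, held the core at both 84 and 15 bases before its start. The log2 change of Itgam was -0.05 (SE 0.06) in the fit without the filter and its groups overlapped, so it has no clear direction. Whether the letters bear on the levels was not tested.

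The 3 C1q genes lie side by side on mouse chromosome 4 (GRCm38; C1qb 136880126 to 136886200, C1qc 136889801 to 136892936, C1qa 136895916 to 136898844), and each encodes 1 chain of the protein. C1qc, the C chain, was 16.5 and 14.7 FPKM in cKO replicates 1 and 2, against 4.90, 9.09 and 6.91 FPKM in control replicates 1, 2 and 3. C1qb, the B chain, was 13.8 and 11.1 FPKM in cKO, against 4.85, 6.64 and 5.34 FPKM in controls. C1qa, the A chain, was 13.6 and 9.11 FPKM in cKO, against 4.53, 8.60 and 4.30 FPKM in controls. For C1qb and C1qc the lowest cKO library exceeded the highest control by 1.68 and 1.61 times. C1qa was separated by only 1.06 times, with control replicate 2 close to cKO replicate 2.

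The log2 change was 1.09 for C1qc (SE 0.25), 1.03 for C1qb (SE 0.18) and 0.89 for C1qa (SE 0.32), each with an adjusted p of 0.575 in limma. The FPKM of the 3 chains summed to 39.4 ± 6.34 in cKO (SD, n = 2) and 18.4 ± 5.28 in controls (SD, n = 3), a ratio of 2.14. The make-up of that sum overlapped between the groups. C1qc took 37.7% and 42.0% of it in cKO libraries, against 34.3%, 37.4% and 41.7% in controls. C1qb took 31.3% and 31.9% in cKO, against 34.0%, 27.3% and 32.3% in controls. C1qa took 31.0% and 26.1% in cKO, against 31.7%, 35.3% and 25.97% in controls.

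**Figure D1:**
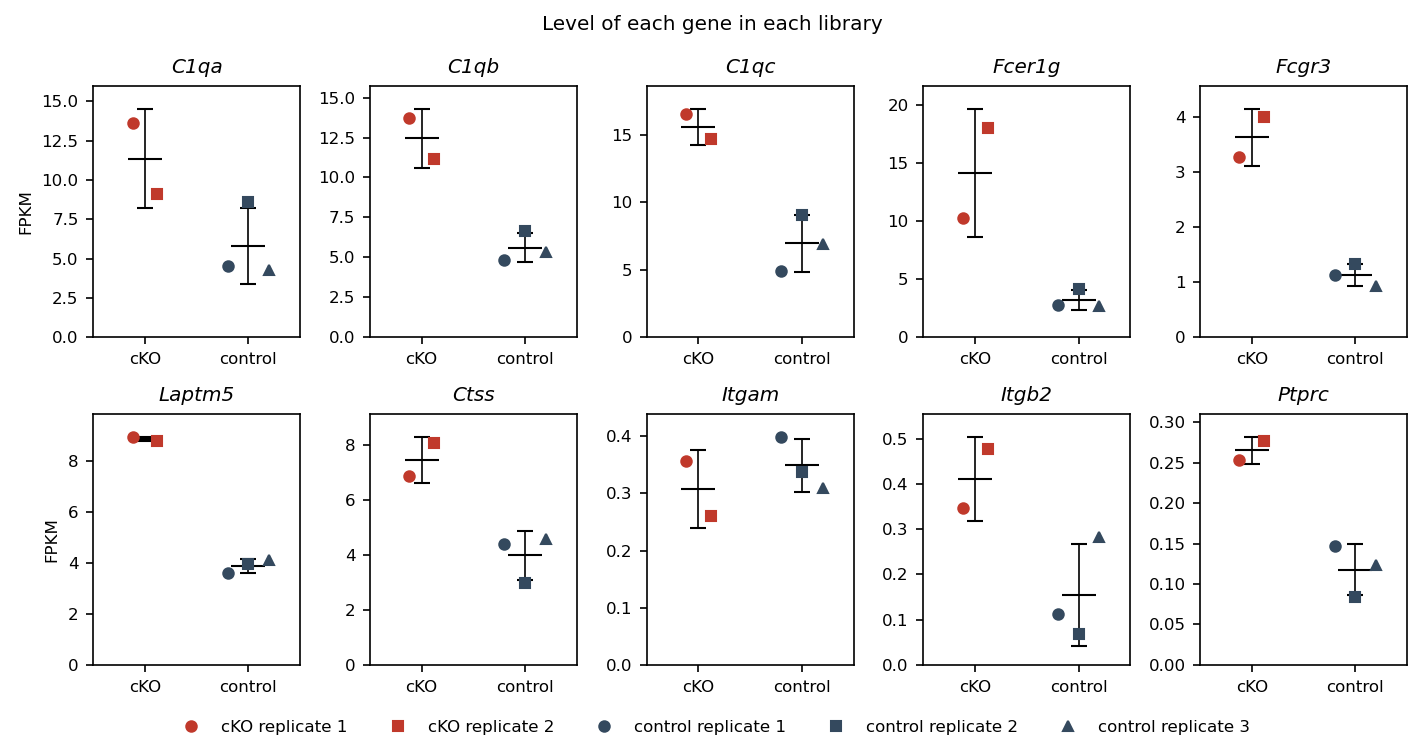
FPKM (vertical axis, starting at 0, with its own scale in each panel) of each of the 10 genes in the 2 cKO and 3 control libraries; bars show the mean and SD. Both cKO points lie above all control points in every panel except that of Itgam, and control replicate 2 comes near the cKO libraries for C1qa.

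The Fc receptor genes gave the largest changes. Fcer1g (chromosome 1, 171229572 to 171234349), the common signalling chain that carries an ITAM, the tyrosine motif that recruits the kinase Syk, was 10.2 and 18.04 FPKM in cKO, against 2.79, 4.17 and 2.65 FPKM in controls. The lowest cKO value was 2.46 times the highest control. The log2 change was 1.82 (SE 0.29, adjusted p = 0.575 in limma), and the spread between the cKO libraries was the widest of the 10 genes. Without cKO replicate 2, the higher library, the change was 1.44, and without cKO replicate 1 it was 2.20.

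Fcgr3 (chromosome 1, 171051169 to 171065915), an activating receptor for immunoglobulin G that pairs with the Fcer1g chain, was 3.27 and 4.001 FPKM in cKO, against 1.13, 1.33 and 0.934 FPKM in controls. Its log2 change was 1.12 (SE 0.20, adjusted p = 0.575 in limma), and its lowest cKO library was 2.47 times the highest control. The ratio of Fcer1g to Fcgr3 was 3.13 and 4.51 in cKO libraries and 2.47, 3.14 and 2.84 in controls, so cKO replicate 1 lay within the controls. Fcgr3 is nearly identical in its extracellular part to the neighbouring inhibitory receptor gene Fcgr2b, and reads may be shared between them. Fcgr2b, named here for that reason after its values were seen, was 0.098 and 0.234 FPKM in cKO, against 0, 0.041 and 0.096 FPKM in controls.

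The lysosomal genes differed in their spread. Laptm5 (chromosome 4, 130912890 to 130936148), a lysosomal membrane protein of blood-derived cells, was 8.93 and 8.80 FPKM in cKO, against 3.59, 3.97 and 4.10 FPKM in controls. Replicates agreed closely in both groups, and its log2 change of 1.01 (SE 0.13) had the lowest adjusted p of the members, 0.378 in limma. Ctss (chromosome 3, 95526786 to 95556405), cathepsin S, a protease that trims the invariant chain during antigen presentation, was 6.87 and 8.06 FPKM in cKO, against 4.42, 2.97 and 4.57 FPKM in controls. Its log2 change of 0.78 (SE 0.20, adjusted p = 0.575 in limma) was the smallest of the 7 tested genes.

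The leukocyte integrin and CD45 genes were near the bottom of the range of expression, all under 0.5 FPKM in every library, and did not reach the level required for the test. Itgam (chromosome 7, 128062640 to 128118491), the alpha chain CD11b, was 0.356 and 0.260 FPKM in cKO, against 0.400, 0.338 and 0.310 FPKM in controls. The groups overlapped and the ratio of means was 0.882. Itgb2 (chromosome 10, 77530329 to 77565708), the beta chain CD18 shared by the leukocyte integrins, was 0.346 and 0.477 FPKM in cKO, against 0.112, 0.068 and 0.283 FPKM in controls. Ptprc (chromosome 1, 138062859 to 138175756) was 0.253 and 0.277 FPKM in cKO, against 0.147, 0.084 and 0.123 FPKM in controls.

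Both cKO libraries were therefore above every control for Itgb2 and Ptprc, by ratios of means of 2.66 and 2.25, while Itgam showed no such difference. In a fit without the filter on low values, the log2 changes were 0.29 for Itgb2 (SE 0.10), 0.18 for Ptprc (SE 0.05) and -0.05 for Itgam (SE 0.06), with adjusted p of 0.641, 0.641 and 0.827 in limma. With a pseudocount of 0.1 in place of 1, an alternative joined to the unfiltered fit after the data were seen, those of Itgb2 and Ptprc were 1.08 and 0.75 and that of Itgam -0.14. The FPKM of Itgam over that of Itgb2 was 1.03 and 0.545 in cKO, against 3.56, 4.94 and 1.097 in controls. Sequencing depth is not known for these libraries, so no counting interval can be put on such low values. The alpha chains of the other leukocyte integrins, named after their values were seen, were as low. Itgal (CD11a) was 0.280 and 0.375 FPKM in cKO, against 0.072, 0.024 and 0.150 FPKM in controls. Itgax (CD11c) was 0.046 and 0.104 FPKM in cKO, against 0.018, 0.028 and 0 FPKM in controls.

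Over all 10 genes the median log2 change was 0.95, beside -0.02 over all tested loci, whose 5th and 95th percentiles were -0.64 and 0.48. The exact two-sided permutation test of single genes can give no p below 0.1 with 3 and 2 libraries. It gave that smallest value, 0.1, for 7 of the genes, 0.2 for C1qa and Itgb2, and 0.5 for Itgam. In the authors' deposited table, 7 of the 10 genes were tested, and 3 were marked significant: Fcer1g (log2 fold change 2.14, q-value 0.0059), Laptm5 (1.19, q-value 0.0202) and Fcgr3 (1.69, q-value 0.0252). There, 163 of the 13511 tested loci, or 1.21%, were marked significant and higher. The C1q genes had q-values of 0.0618 for C1qc, 0.0637 for C1qb and 0.134 for C1qa there, and Ctss had 0.144 in the authors' deposited table.

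**Figure D2:**
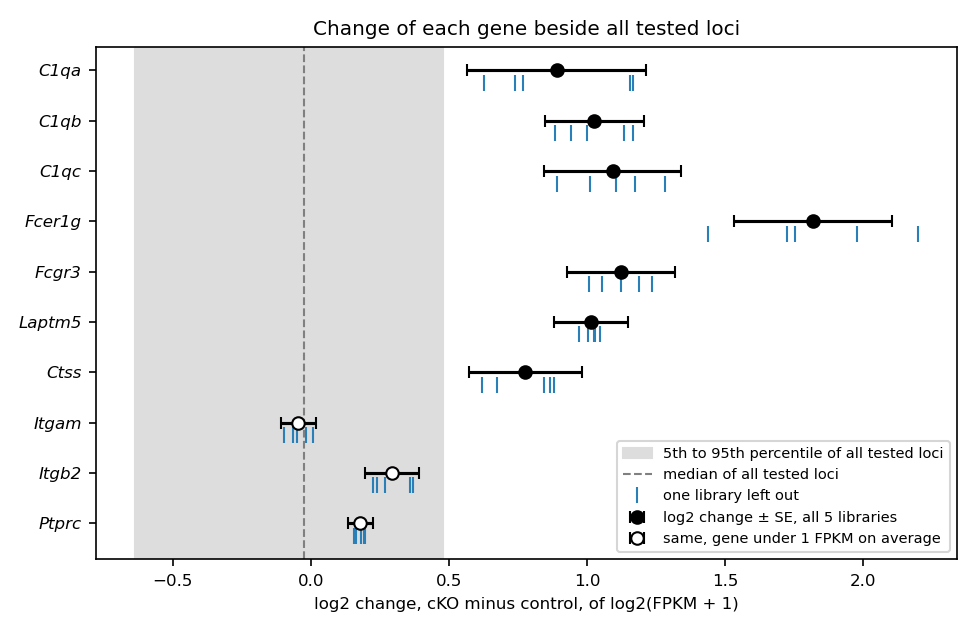
Log2 change (cKO minus control, horizontal axis) of each gene with its SE from all 5 libraries, open circles for the 3 genes under 1 FPKM on average; blue ticks are the values with 1 library left out. The grey band holds the 5th to 95th percentile of tested loci, -0.64 to 0.48, and the 7 filled circles lie to its right, with Fcer1g farthest at 1.82.

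By mean level the genes stood in a similar order in both groups, with Fcer1g as the main exception. In controls the mean FPKM ran from C1qc (6.97 ± 2.10) through C1qa (5.81 ± 2.42), C1qb (5.61 ± 0.928), Ctss (3.99 ± 0.882), Laptm5 (3.89 ± 0.266) and Fcer1g (3.20 ± 0.840) to Fcgr3 (1.13 ± 0.196; SD, n = 3). Neighbours among the C1q genes, and among Ctss, Laptm5 and Fcer1g, differed by less than the larger of their SDs. In cKO the order was C1qc (15.6 ± 1.32), Fcer1g (14.1 ± 5.51), C1qb (12.4 ± 1.85), C1qa (11.3 ± 3.17), Laptm5 (8.86 ± 0.096), Ctss (7.47 ± 0.846) and Fcgr3 (3.64 ± 0.516; SD, n = 2). By group means Fcer1g thus lay beside the C1q genes in cKO and below them in controls. The cKO libraries differed in this. Fcer1g, at 10.2 FPKM in cKO replicate 1, was below every C1q gene there. At 18.04 FPKM in cKO replicate 2 it was above every C1q gene, so its place in cKO rests on that library.

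The libraries of a group were not ordered alike across genes. Control replicate 2 was the highest control for all 3 C1q genes and for both Fc receptor genes, and the lowest control for Ctss, Itgb2 and Ptprc. The C1q genes, Laptm5 and Itgam were higher in cKO replicate 1 than in cKO replicate 2, and the other 5 genes were higher in cKO replicate 2. With any single library left out, 9 of the 10 genes had all cKO values above all control values. Leaving out a library cannot make separated groups overlap, so this count could not fall and is no support. The share of all loci above 0 with all cKO values above all control values was then 14.7% to 26.2%.

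Other microglial genes mostly differed in the same direction. Of a list of 15 microglial genes, 9 had both cKO libraries above every control, against 12.9% of loci above 0, 1 had both below and 5 overlapped; 10 reached the test and none was called. Fcrls, an Fc receptor-like gene of microglia, was 7.90 and 7.76 FPKM in cKO, against 2.61, 3.47 and 3.09 FPKM in controls. Csf1r, the receptor that sustains microglia, was 6.365 and 6.195 FPKM in cKO, against 3.73, 4.14 and 3.01 FPKM in controls. Tmem119, a marker of mature microglia, was 0.665 and 0.523 FPKM in cKO, below the 0.817, 1.62 and 0.811 FPKM of controls. Sall1 was 19.1 and 23.3 FPKM in cKO, against 20.8, 32.8 and 26.04 FPKM in controls; neural progenitors also express it.

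The remaining identity genes were spread between these cases. P2ry12, a purine receptor, was 2.57 and 3.08 FPKM in cKO, against 2.18, 1.45 and 1.59 FPKM in controls. Its groups did not overlap. C3ar1, the receptor of the complement fragment C3a, was 1.203 and 2.28 FPKM in cKO, against 0.274, 0.231 and 0.344 FPKM in controls. Aif1, which encodes the microglial stain Iba1, was 2.73 and 1.34 FPKM in cKO, against 0.372, 1.17 and 1.22 FPKM in controls. For Cx3cr1, the fractalkine receptor, the groups overlapped, since cKO replicate 1 was above and cKO replicate 2, at 0.875 FPKM, below every control.

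The members were set against 6 identity genes that reached 1 FPKM (Csf1r, Cx3cr1, P2ry12, Sall1, Aif1 and Trem2), as the difference from their mean log2(FPKM + 1). Aif1, with a mean of 0.920 FPKM in controls, reached 1 FPKM only through its cKO values. Tmem119, lower in cKO, and C3ar1, higher in cKO, did not reach it. The set was therefore not chosen independently of the comparison. Aif1, P2ry12, Trem2 and Cx3cr1 were also lower than the C1q genes in every library, and log2(FPKM + 1) understates changes of low genes. The effect of that on the relative levels was not tested. The mean of the 6 genes was 2.71 and 2.31 in cKO libraries, against 1.98, 2.18 and 2.06 in controls. Relative to it, Fcer1g was 0.79 and 1.94 in cKO, against -0.06, 0.19 and -0.20 in controls. C1qb was 1.18 and 1.29 in cKO, against 0.57, 0.76 and 0.60 in controls. C1qc, Fcgr3 and Laptm5 also had both cKO libraries above every control on this scale, while C1qa and Ctss overlapped. The same genes were separated when Sall1 was taken out of the identity genes, a choice made after the data were seen, and C1qc then only narrowly, at 1.75 in cKO replicate 1, against 1.74 in control replicate 2.

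**Figure D3:**
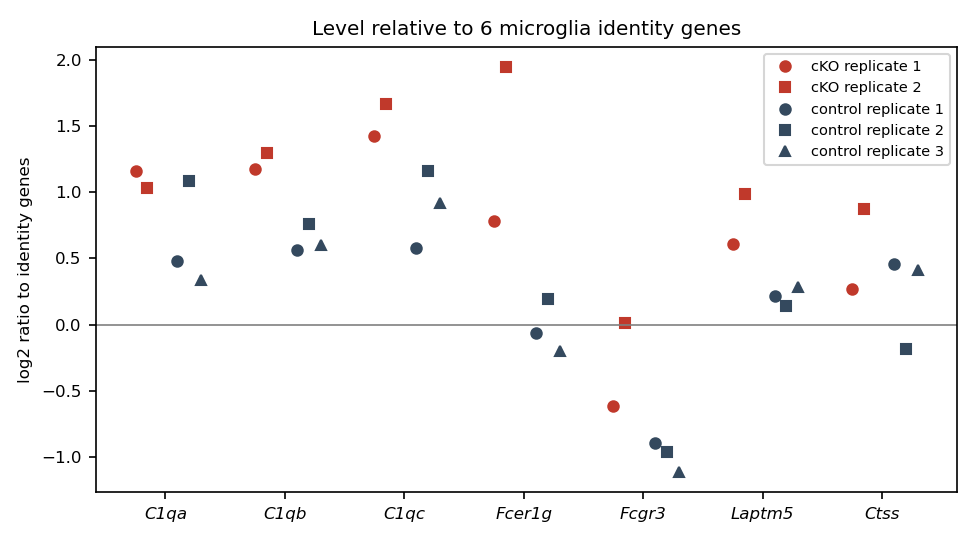
Log2 ratio (vertical axis) of the 7 members with a mean of at least 1 FPKM to the mean of 6 microglia identity genes, one point per library, cKO to the left of control for each gene. Fcer1g has the widest separation between groups, and cKO and control points overlap for C1qa and Ctss.

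Genes that act with the members were taken from lists chosen with earlier results of these data known, and members were left out of the lists. No gene of the 6 lists was called by limma over all tested loci. Of 52 other complement genes listed, 19 reached the test. Both cKO libraries were below every control for 5 of these, against 15.6% of all tested loci, and above every control for none, against 13.4% of tested loci, and the median log2 change was -0.17. Serping1, the inhibitor of the C1 proteases, was 4.10 and 5.37 FPKM in cKO, against 7.26, 10.7 and 8.47 FPKM in controls. Cfp, properdin, which stabilises the alternative pathway convertase, was 6.35 and 6.97 FPKM in cKO, against 10.6, 10.8 and 10.8 FPKM in controls. Masp1, a protease of the lectin pathway, was 13.7 and 10.04 FPKM in cKO, against 14.9, 28.7 and 21.1 FPKM in controls. Sez6l, a neuronal protein related to complement regulators, was 26.1 and 21.5 FPKM in cKO, against 42.9, 26.7 and 31.1 FPKM in controls.

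The C1 proteases and the components C2, C4 and C3 were below the 1 FPKM needed for the test, and are named after their values were seen. C1ra, a protease of the C1 complex, was listed at 0 in both cKO libraries and was 0.027, 0.019 and 0.045 FPKM in controls. C1s1, the other protease of the complex, was 0.053 and 0.038 FPKM in cKO, against 0.130, 0 and 0 FPKM in controls. C2, which C1s cleaves, was 0.344 and 0.294 FPKM in cKO, against 0.122, 0.0972 and 0.0262 FPKM in controls, so both cKO libraries lay above every control. It was not called by limma without the filter (adjusted p 0.612). C4b, another substrate of C1s, was 0 and 0.0138 FPKM in cKO, against 0, 0.0127 and 0 FPKM in controls. C3, the central component whose fragments complement receptor 3 binds, was 0.115 and 0.071 FPKM in cKO, against 0.254, 0.024 and 0.160 FPKM in controls.

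The ITAM signalling list holds the receptors, kinases and inhibitors that act with the Fc adaptor. Of 32 listed genes, 9 reached the test, 4 of them had both cKO libraries above every control and none had both below, against 13.4% and 15.6% of all tested loci, with a median log2 change of 0.26. Tyrobp, a second ITAM adaptor, was 17.4 and 18.8 FPKM in cKO, against 3.34, 7.56 and 7.62 FPKM in controls (log2 change 1.48, SE 0.34). Trem2, a lipid receptor that signals through it, was 6.04 and 3.71 FPKM in cKO, against 1.90, 1.63 and 1.97 FPKM in controls (log2 change 1.03, SE 0.23). Inpp5d, an inositol phosphatase that dampens these receptors, was 1.23 and 1.42 FPKM in cKO, against 0.834, 0.738 and 0.899 FPKM in controls, and reached the mean of 1 FPKM only through its cKO values. Sirpa, an inhibitory receptor also found on neurons, was 21.6 and 20.2 FPKM in cKO, against 19.6, 15.2 and 17.2 FPKM in controls.

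Among Fc receptors other than the members, 2 of 14 listed genes reached the test. Fcrls, given above, had a log2 change of 1.13 (SE 0.16), and Fcgrt, the neonatal Fc receptor, was 1.74 and 1.89 FPKM in cKO, against 0.952, 1.91 and 1.38 FPKM in controls. Of the 22 cathepsin and related genes 16 reached the test, 5 of them with both cKO libraries above every control and 1 with both below, against 13.4% and 15.6% of all tested loci, and the median log2 change was 0.04. Ctsd was 142 and 131 FPKM in cKO, against 79.8, 91.4 and 82.01 FPKM in controls. Ctsc was 2.76 and 2.69 FPKM in cKO, against 0.932, 1.40 and 1.17 FPKM in controls. Both are lysosomal proteases, and Ctsd is expressed in most cells. Ctsb was 47.0 and 46.1 FPKM in cKO, against 32.8, 36.2 and 32.3 FPKM in controls, and Lgmn, an asparaginyl protease, was 33.7 and 37.4 FPKM in cKO, against 22.1, 27.4 and 25.4 FPKM in controls.

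The integrin list holds other integrin chains, their ligands and the proteins that activate or anchor them. Of 40 listed genes 20 reached the test, 3 with both cKO libraries above every control and 1 with both below, against 13.4% and 15.6% of all tested loci, and the median log2 change was 0.06. Itgav, the alpha chain of vitronectin-binding integrins, was 3.41 and 4.38 FPKM in cKO, against 3.01, 2.66 and 2.46 FPKM in controls. Rap1b, a small GTPase that activates integrins, was 46.3 and 62.3 FPKM in cKO, against 46.04, 31.0 and 36.7 FPKM in controls. The groups of Vcam1, a ligand of leukocyte integrins, and of Cyth1, an exchange factor that binds the shared beta chain, overlapped. The 30 receptor tyrosine phosphatases and CD45 partners gave 23 tested genes, 2 higher and 2 lower without overlap, against the same shares of 13.4% and 15.6%, and a median of 0.04. Ptprz1, a phosphatase of radial glia, was 53.1 and 57.9 FPKM in cKO, against 38.4, 44.7 and 43.45 FPKM in controls. Lgals9, a galectin, was 2.53 and 2.42 FPKM in cKO, against 1.68, 1.93 and 1.03 FPKM in controls. Ptprf and Ptpru, which encode adhesion phosphatases, were lower in both cKO libraries than in every control, with log2 changes of -0.41 and -0.65.

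**Figure D4:**
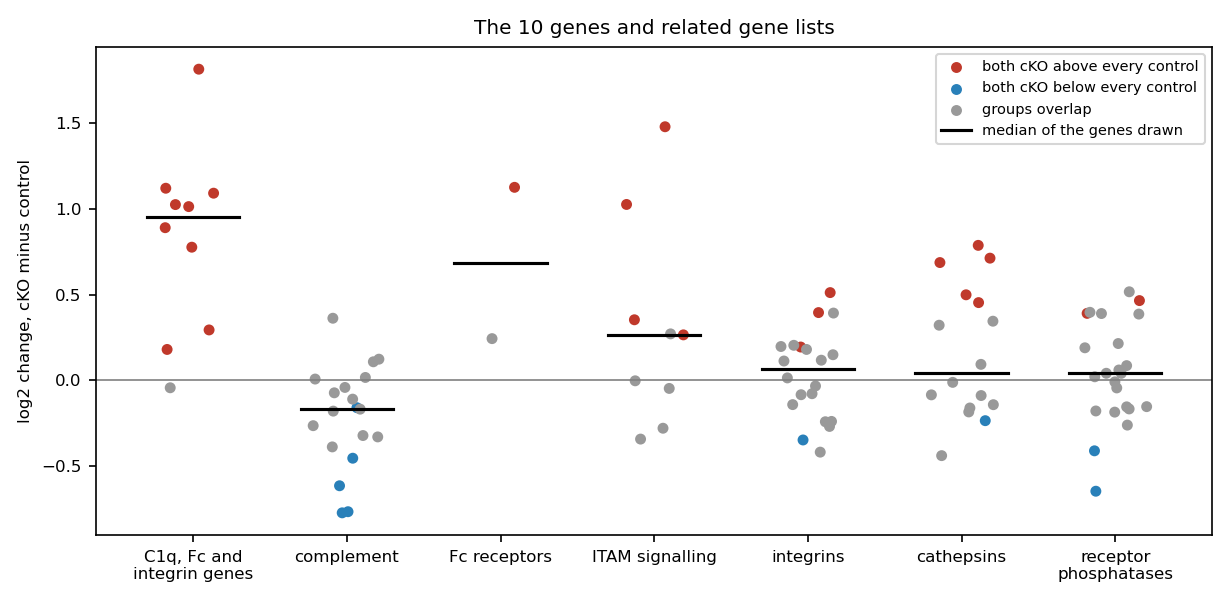
Log2 change (cKO minus control, vertical axis) of the 10 members and of the genes with a mean of at least 1 FPKM in 6 related lists, 1 point per gene; bars are medians. The members have a median of 0.95, and the complement list, at -0.17, has blue points (both cKO libraries below every control) and no red ones.

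Markers of other cells that may carry these genes were counted in the same libraries. Border macrophages, which line the meninges and vessels and also express C1q and Fc receptors, had 10 listed markers. Both cKO libraries were above every control for 5 of them, against 12.9% of loci above 0. The 5 include Cd163, at only 0.012 and 0.014 FPKM in cKO and 0 in every control. The FPKM of the 10 markers summed to 8.95 and 8.12 in cKO, against 3.25, 6.63 and 2.75 in controls. Of the 10, Ms4a7 was 0.951 and 0.985 FPKM in cKO and was listed at 0 in every control. It did not reach the mean of 1 FPKM, and was called in the limma fit without the filter (adjusted p 0.0223). Lyve1 and Pf4 overlapped between groups. The 11 monocyte and neutrophil markers found in the table summed to 0.432 and 0.333 FPKM in cKO, against 0.614, 0.459 and 0.356 FPKM in controls, with Ly6c2, S100a8, Elane and Chil3 at 0 in all libraries. The 10 lymphocyte markers found there summed to 0.506 and 0.453 FPKM in cKO, against 0.299, 0.283 and 0.431 FPKM in controls, with Cd3e, Cd8a, Ms4a1, Nkg7 and Klrb1c at 0 in all. The microglial list summed to 77.2 and 85.4 FPKM in cKO, against 63.2, 76.1 and 64.1 FPKM in controls, and none of its 15 genes was at 0 in all libraries. Without Sall1 and Tgfbr1, which other cortical cells also express, the sum was 40.2 and 33.98 FPKM in cKO, against 19.7, 23.96 and 19.6 FPKM in controls. The part of these cells in the members' differences was not tested.

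Markers of vascular, cortical and other blood cells were summed in the same way. The 8 endothelial markers summed to 72.2 and 74.0 FPKM in cKO, against 66.6, 79.8 and 64.4 FPKM in controls, and all 8 overlapped between groups. Pericyte and mural markers summed to 34.3 and 41.3 FPKM in cKO, against 30.8, 23.8 and 25.2 FPKM in controls. The largest part of that sum was Rgs5, at 19.4 and 27.4 FPKM in cKO, against 15.9, 11.4 and 13.1 FPKM in controls. Both cKO libraries were above every control for 4 of the 6 markers, against 12.9% of loci above 0. The platelet list held little but Gp1bb, at 248 and 202 FPKM in cKO, against 211, 235 and 217 FPKM in controls, a locus joined to a second gene symbol; the other platelet markers reached at most 0.682 FPKM, so the sum does not describe platelets. Of the mast cell and basophil sum, most was Kit, at 16.4 and 15.9 FPKM in cKO, against 19.2, 16.6 and 16.5 FPKM in controls. In control replicate 1 Gata2 added 7.39 FPKM to that sum, and in any other library at most 0.349 FPKM. The sums of erythroid, meningeal, radial glial and projection neuron markers overlapped between the groups.

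**Figure D5:**
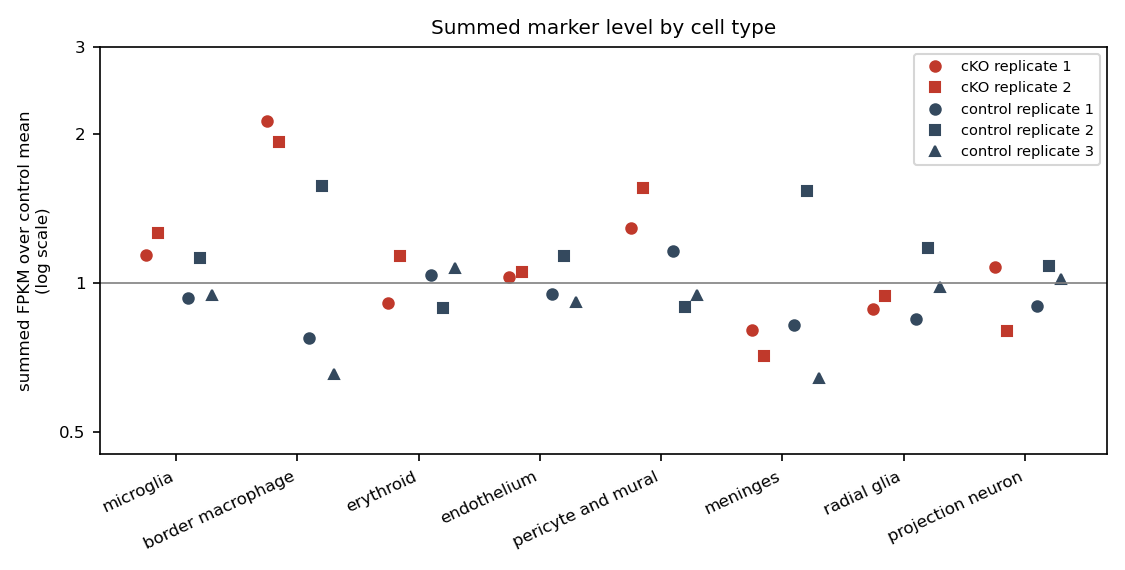
Summed FPKM of the markers of 8 cell types in each library, divided by the control mean of the same sum (vertical axis, log scale), cKO to the left of control. The cKO libraries exceed every control for microglia (narrowly), border macrophages and pericytes, and control replicate 2 stands apart from the other controls for border macrophages and meninges.

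The 8 tested loci whose profile over the 5 libraries was nearest to the mean profile of the 7 tested members were found by the root mean square difference of centred log2(FPKM + 1). They were Fcrls (0.05), the joined locus of Gucy1a3 and Mir7010 (0.10), Apoe (0.11), Phlda3 (0.12), Adgre1 (0.12), Ddit4l (0.13), Reln (0.14) and Mef2c (0.14). The members themselves lay between 0.10 for Fcgr3 and Laptm5 and 0.43 for Fcer1g. Adgre1, which encodes the macrophage antigen F4/80, was 1.80 and 2.28 FPKM in cKO, against 0.544, 0.760 and 0.551 FPKM in controls. It reached the mean of 1 FPKM only through its cKO values. Apoe, a lipid carrier of glia and macrophages, was 80.9 and 69.98 FPKM in cKO, against 35.7, 44.4 and 35.7 FPKM in controls. Reln is a secreted protein of Cajal-Retzius neurons, so nearness of profile over 5 libraries did not pick out a single cell type.

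The libraries were checked at the deleted gene. Chd8 was 19.3 and 15.1 FPKM in cKO, against 31.5, 30.02 and 31.8 FPKM in controls, with no overlap between the groups. One protocol field of the RNA samples speaks of Eed in place of Chd8. The summed FPKM of a library was 418191 to 484296, and Pearson correlations between libraries across tested loci were 0.880 to 0.933. Control replicate 1 stood apart at some loci, named after their values were seen. Tfap2b was 82.3 FPKM there and at most 0.040 FPKM in any other library, and En1 was 19.0 and at most 0.029 FPKM. Whether the tissue of control replicate 1 differed was not tested.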

How the data were processed

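The authors deposited an FPKM value per locus and RNA library, their mean FPKM per group, and their own comparison. Its columns, per the file headers, were the log2 fold change, the score of their test, and the p-value and q-value. The FPKM unit is read from the values and the Cufflinks locus names. Per the submitters' processing notes, CASAVA, TopHat, Cufflinks, Bowtie2 and MACS were used with mm10. Tool versions were not given in the sources used here, nor were annotation and strand setting. Without strand, reads of overlapping antisense genes cannot be told apart. FPKM holds no counts. Values under 0.05 FPKM gave rough depths relative to control replicate 1 of 1.19 and 1.05 for cKO replicates 1 and 2 and 1.59 and 1.34 for control replicates 2 and 3, with 21.5% to 56.0% of loci near them. Absolute depth is unknown.

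The 12672 loci that averaged 1 FPKM or more were tested as log2(FPKM + 1) in R 4.3.3 using limma 3.58.1, an intensity trend and Benjamini-Hochberg adjustment over all of them. The fit had 3 residual degrees of freedom. The procedure was first tested on simulated data with known changes. It called 23% of loci with a true log2 change of 1 and 77% of those with a change of 2, so it misses many changes of that size. The members and all gene lists were chosen with earlier results of these data known. Named genes were Chd8, the members, for each list the 4 or fewer tested genes of smallest unadjusted p, the microglia identity genes and the 8 nearest profiles; others are said to be named after their values were seen. Ms4a7, Cd163, Tgfbr1, Tmem119, Lyve1, Pf4, Rgs5, Gp1bb, Kit and Gata2 are markers of the cell type lists. Some listed marker genes are not reported here and enter no list count, sum or mean. Gene positions and promoters came from RefSeq (GRCm38.p6), matched by symbol. Alternatives were other filters, pseudocounts, scalings, variance settings, the replicate number as a block and leaving out each library.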

Additional observations from a re-analysis of the deposited data

How the results depend on the processing

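The 10 genes gave 130 results under alternatives, none of them past the threshold after adjustment over all loci. Of these 129 kept their direction, and the log2 change of Itgam was -0.10 to 0.0080 with 1 library left out (0.0080 without cKO replicate 2) and -0.05 with all. Filter and variance settings do not alter the log2 change. For the 9 genes whose groups did not overlap, leaving out a library cannot reverse it. Results of these kinds could not change direction and are no support. Both cKO libraries lay above every control for 9 of 10 genes under each scaling. The count was also 9 without each library, where it could not fall. The median log2 change of the 10 genes, 0.95, was 1.11 with a pseudocount of 0.1, 1.01 with upper quartile scaling and 1.08 with libraries scaled to an equal sum. It was 1.03 over the 7 genes with at least 1 FPKM, 1.02 over the 6 with at least 5 FPKM (Fcer1g, Laptm5 and Ctss reached that only through cKO, so this value is no support), and 0.87 to 1.08 with 1 library left out. Over all loci, the 6 calls became 9 to 37 with 1 library left out (37 without cKO replicate 2, 25 without cKO replicate 1, 15 without control replicate 1, 14 without control replicate 2). With the replicate number as a block (replicate block) 3 loci were called and the median of the 10 genes was 0.93. Samples with the same number did not deviate together (correlations of -0.07 and -0.11 across loci), and the labels do not say what the number marks. Relative to the identity genes, 5 of the 7 genes had both cKO libraries above every control, and also 5 without Sall1. The count was 5 to 6 with 1 library left out, but with the same identity genes leaving out a library cannot lower it. The causes of these shifts were not tested. Unknown depth limits Itgam, Itgb2 and Ptprc most.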
